A study of Mus musculus with 15 samples.

Results

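The genes described here are 32 genes for chaperones, folding enzymes, degradation factors and stress sensors of the endoplasmic reticulum (ER). They were found by their Entrez gene IDs among the 36528 genes listed for every library, and all 32 were present and passed the filter on low counts. Polyadenylated RNA of the small intestine of mouse embryos at E16.5 was sequenced in 15 libraries, 5 for each of 3 genotypes, all of which lacked Mlkl, the executor of necroptosis. The groups were Casp8 C362A knockin with Mlkl knockout (C362A below; the substitution replaces the catalytic cysteine of caspase-8), Casp8 knockout with Mlkl knockout (knockout), and wildtype Casp8 with Mlkl knockout (wildtype). The tissue of the C362A embryos was labelled as inflamed, and that of the other genotypes as normal. The labels give no litter, sex, batch or replicate number, so library numbers follow accession order and pair nothing, and the p-values measure the spread between these libraries, which may be partly technical.

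Total counts per library lay between 31896399 and 38532127, and the 32 genes held 1.04% to 1.24% of them. Casp8 averaged 69.9 ± 3.41 CPM (counts relative to the library's total, scaled between libraries by TMM factors) in C362A and 14.4 ± 1.65 CPM in knockout, against 70.0 ± 5.97 CPM in wildtype libraries (SD, n = 5 each). Its log2 difference was -2.28 (SE 0.08) in knockout against wildtype, as that label says, whereas a substitution cannot be read from gene counts. The mean level of Mlkl was 0.39 CPM in C362A libraries and 0.52 CPM in knockout libraries, against 0.51 CPM with wildtype Casp8. The 8 genes that mark intestine, among them Cdx2 and Vil1, summed to 3659 to 6492 CPM in C362A, 5682 to 6875 CPM in knockout and 4424 to 9803 CPM in wildtype. Sample ID numbers fall into 2 runs of consecutive numbers, each with 2 (run 1) or 3 (run 2) libraries of every genotype. The labels do not say what a run stands for.

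Proteins that enter the secretory pathway fold in the ER with the help of the HSP70-type chaperone BiP, encoded by Hspa5, and proteins that fail to fold are returned to the cytosol and degraded. When unfolded protein accumulates, BiP leaves the sensors IRE1, ATF6 and PERK: IRE1 splices Xbp1 mRNA, ATF6 is cleaved into a transcription factor, and PERK phosphorylates the translation factor eIF2α. XBP1 and ATF6 then raise transcription of chaperone and degradation genes, a programme that secretory cells of the gut epithelium use heavily. Gene-level counts show neither splicing of Xbp1, nor cleavage of ATF6, nor phosphorylation of eIF2α.

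The DNA elements through which ATF6 and XBP1 act are shown first. The genes were chosen for their roles in ER folding and the stress response, so their share of matches is not independent of that choice. The ER stress response element (ERSE) was searched as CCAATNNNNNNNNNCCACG and ERSE-II as ATTGGNCCACG, on both strands, in RefSeq promoters on GRCm38.p6 that run from 250 bases before to 50 bases after a gene's start. A promoter was listed for 26 of the 32 genes, and Atf6, Derl1, Ern2, Hyou1, Manf and Sec61a1 had no entry. An ERSE match was held by 9 of the 26 genes (34.6%), against 37 of all 27025 genes with a promoter (0.137%). ERSE-II was matched in 2 of the 26 genes (7.69%), against 12 of all genes (0.0444%). The UPR element TGACGTGG was matched in 0 of the 26 genes, against 193 of all genes (0.714%). The 5-base parts alone were common: CCACG was in 21 of the 26 genes and 35.5% of all genes, and CCAAT in 20 of the 26 genes and 41.1% of all genes. Among 108 other genes of the pathway with a promoter, 1 held an ERSE, the ER oxidase gene Ero1b. A match describes letters and not a bound site.

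Each of the 12 matches is printed in capitals with 8 bases on either side, 5′ to 3′ on the strand of its gene. A match that reads CGTGG first lies on the opposite strand. The windows are Hspa5 chr2:34772017-34772051 (+), Hsp90b1 chr10:86705630-86705664 (-) and chr10:86705525-86705559 (-), Dnajc3 chr14:118937819-118937853 (+), Dnajb11 chr16:22857844-22857870 (+), Pdia6 chr12:17266483-17266517 (+), Calr chr8:84847067-84847101 (-), Canx chr11:50325792-50325826 (-), Creld2 chr15:88819512-88819546 (+), Herpud1 chr8:94386369-94386395 (+), Syvn1 chr19:6046524-6046558 (+) and Derl3 chr10:75893234-75893268 (+).
Hspa5, ERSE: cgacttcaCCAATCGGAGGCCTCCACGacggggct
Hsp90b1, first ERSE: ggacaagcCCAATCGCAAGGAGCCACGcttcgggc
Hsp90b1, second ERSE: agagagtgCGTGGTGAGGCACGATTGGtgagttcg
Dnajc3, ERSE: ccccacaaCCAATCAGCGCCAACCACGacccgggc
Dnajb11, ERSE-II: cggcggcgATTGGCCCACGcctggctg
Pdia6, ERSE: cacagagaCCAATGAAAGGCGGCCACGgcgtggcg
Calr, ERSE: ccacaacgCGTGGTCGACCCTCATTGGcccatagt
Canx, ERSE: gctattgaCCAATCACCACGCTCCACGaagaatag
Creld2, ERSE: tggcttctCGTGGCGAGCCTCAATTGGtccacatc
Herpud1, ERSE-II: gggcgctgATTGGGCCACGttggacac
Syvn1, ERSE: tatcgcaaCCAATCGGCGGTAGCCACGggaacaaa
Derl3, ERSE: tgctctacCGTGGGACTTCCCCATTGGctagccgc

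The nearest ERSE to a start was that of Syvn1, at -44 to -26, followed by Hspa5 at -65 to -47. The farthest was the first of Hsp90b1, at -212 to -194. The ERSE-II of Herpud1 lay at -52 to -42, and that of Dnajb11 lay past the start, at 8 to 18. The 250 bases before the start of Hspa5 (chr2:34771840-34772089, +) and of Hsp90b1 (chr10:86705445-86705694, -) are given whole, since these are the central ER chaperones and Hsp90b1 was the only one of the 26 genes with 2 exact matches. Stretches that differ from the pattern by a base were not searched and stay in lower case, so exact matches need not be all the elements of a promoter.
Hspa5: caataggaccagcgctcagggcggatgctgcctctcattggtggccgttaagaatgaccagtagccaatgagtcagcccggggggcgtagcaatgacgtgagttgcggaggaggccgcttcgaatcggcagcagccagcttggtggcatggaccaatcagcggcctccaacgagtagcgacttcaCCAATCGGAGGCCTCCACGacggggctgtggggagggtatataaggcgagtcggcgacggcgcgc
Hsp90b1: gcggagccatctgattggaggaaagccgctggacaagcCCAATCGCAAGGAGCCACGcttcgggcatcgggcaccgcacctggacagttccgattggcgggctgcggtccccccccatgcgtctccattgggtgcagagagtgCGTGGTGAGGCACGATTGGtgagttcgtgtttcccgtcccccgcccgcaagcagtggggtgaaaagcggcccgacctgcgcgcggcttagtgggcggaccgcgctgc

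Chaperone and isomerase genes led the order of the 32 genes by level, and the sensor genes stood near its end. Compared per length, as the mean of the deposited RPKM (reads scaled for gene length and library size) over the 15 libraries, P4hb stood highest with a level of 907 ± 138 RPKM (SD). Calr followed with 763 ± 53.0 RPKM, Hspa5 with 499 ± 62.3 RPKM, Hsp90b1 with 466 ± 51.8 RPKM and Pdia3 with 404 ± 38.2 RPKM. Neighbours in this order overlapped in range except between Calr and Hspa5, Pdia6 and Canx, Canx and Sec61a1, Xbp1 and Manf, and Ern1 and Derl3. Hspa5 nevertheless lay above Hsp90b1 in 13 of 15 libraries. Just above the first sensor gene in this order was Dnajb9, a BiP cochaperone, with 8.27 ± 1.30 RPKM. Of the sensor genes, Atf6 had 7.68 ± 0.55 RPKM, Eif2ak3 7.39 ± 0.70 RPKM, Ern2 4.15 ± 0.76 RPKM and Ern1 2.83 ± 0.50 RPKM. The lowest level was that of Derl3, at 0.69 ± 0.22 RPKM.

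None of the 32 genes was called in any of the 3 genotype comparisons by edgeR's quasi-likelihood test at an adjusted p under 0.05. In C362A against wildtype 0 of 32 were called, where 0.0817% of the 18370 genes tested were; in knockout against wildtype 0 of 32, where 0.0381% were; and in C362A against knockout 0 of 32, where 0.0109% were. DESeq2 and limma-voom also called 0 of 32 in each comparison, and their shares of all genes are not given here. At an unadjusted p under 0.05, C362A against wildtype had 2 of the 32 genes on the higher side (Dnajc10 and Hsp90b1), against 8.08% of all genes, and 0 on the lower side, against 7.80%. Knockout against wildtype had 2 higher (Hspa5 and Pdia4; 1.20% of all genes) and 1 lower (Ern2; 1.23%). C362A against knockout had 2 higher (Dnajc10 and Ern2; 6.49% of all genes) and 3 lower (Dnajb9, Herpud1 and P4hb; 7.41%). The comparisons of C362A and of knockout with wildtype share the wildtype libraries and are not independent.

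Over all libraries, 95% intervals limit the size of each gene's difference more tightly than the count of calls shows. Each interval is for a single gene in a fit over both ID runs, and it does not bound differences within a run. All 32 genes had 95% intervals within 1 log2 unit of no difference in each of the 3 comparisons. Intervals within 0.5 were held by 31 genes in C362A against wildtype, 30 in knockout against wildtype and 27 in C362A against knockout. In C362A against wildtype the exception was Derl3, with an interval of -0.76 to 0.52 around -0.12. In knockout against wildtype the exceptions were Derl3, with -0.64 to 0.64, and Ern2, with -0.71 to -0.23. The median log2 difference of the 32 genes was -0.02 in C362A against wildtype, 0.04 in knockout against wildtype and -0.02 in C362A against knockout, beside 0.01, -0.00 and 0.01 for all genes tested. Signs were mixed: 16 of the 32 were positive in C362A against wildtype, 20 in knockout against wildtype and 12 in C362A against knockout.

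**Figure D1:**
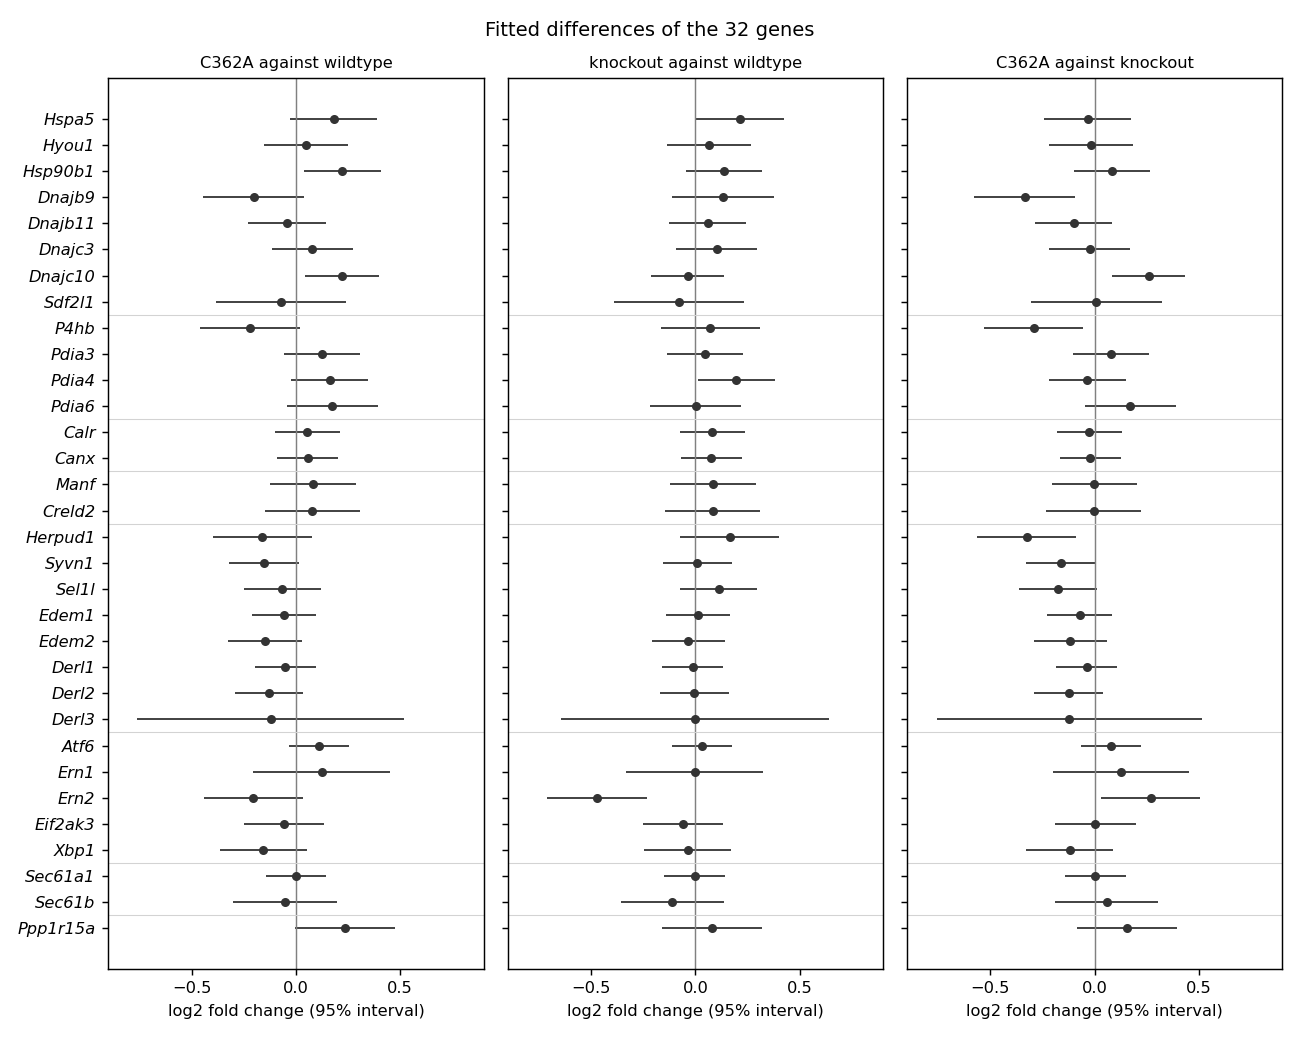
Fitted log2 differences of the 32 genes (x axis) with 95% intervals as bars, 1 panel per comparison, with genes down the page. The intervals of all 32 genes stay inside 1 log2 unit in every panel; Derl3 has the widest bar, and Ern2 in knockout against wildtype has the largest difference, -0.47.

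Of the BiP cycle, Hspa5 (Entrez 14828; chr2:34772090-34776529), the ER HSP70, had 1652, 1235, 1413, 1541 and 1076 CPM in C362A libraries 1 to 5, and 1466, 1576, 1296, 1400 and 1337 CPM in knockout libraries 1 to 5, against 1231, 1261, 1180, 1258 and 1169 CPM in wildtype libraries 1 to 5. Every knockout library lay above every wildtype library, while C362A libraries lay both above and below the wildtype range. Without overlap on the higher side, knockout against wildtype had 2 of the 32 genes, Hspa5 and Pdia4, against 0.370% of all genes tested. The log2 difference of Hspa5 was 0.21 (SE 0.10, adjusted p = 1.0) in knockout against wildtype, 0.18 (SE 0.10, adjusted p = 0.358) in C362A against wildtype and -0.03 (SE 0.10, adjusted p = 0.894) in C362A against knockout.

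Hsp90b1 (Entrez 22027; chr10:86690841-86705444) encodes GRP94, the HSP90 of the ER. Its levels were 1626, 1252, 1394, 1616 and 1184 CPM in C362A and 1354, 1420, 1343, 1248 and 1306 CPM in knockout, against 1216, 1230, 1262, 1144 and 1210 CPM in wildtype libraries 1 to 5. C362A libraries 1, 3 and 4 were above all wildtype libraries, and C362A library 5 was inside their range. The log2 difference was 0.22 (SE 0.09, adjusted p = 0.285) in C362A against wildtype, 0.14 (SE 0.09, adjusted p = 1.0) in knockout against wildtype and 0.08 (SE 0.09, adjusted p = 0.661) in C362A against knockout.

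Dnajc10 (Entrez 66861; chr2:80315446-80354055) encodes ERdj5, a BiP cochaperone that reduces disulfides of proteins bound for degradation. It had 128, 106, 123, 128 and 92.2 CPM in C362A and 96.1, 95.2, 97.9, 92.2 and 101 CPM in knockout, against 104, 98.8, 98.0, 88.3 and 105 CPM in wildtype libraries 1 to 5. The knockout and wildtype libraries shared a range, and 4 of 5 C362A libraries were above both ranges. For C362A library 2 this was narrow, at 105.7 CPM against 105.5 CPM in wildtype library 5. The log2 difference was 0.22 (SE 0.08, adjusted p = 0.285) in C362A against wildtype and 0.26 (SE 0.08, adjusted p = 0.317) in C362A against knockout, beside -0.04 (SE 0.08, adjusted p = 1.0) in knockout against wildtype.

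Dnajb9 encodes ERdj4, a cochaperone that restrains IRE1. It had 12.6, 12.4, 14.2, 14.3 and 16.1 CPM in C362A and 18.7, 18.2, 18.02, 16.1 and 16.6 CPM in knockout, against 12.8, 16.1, 16.48, 20.8 and 13.8 CPM in wildtype. C362A and knockout did not overlap, though their nearest libraries had the same rounded level, and the wildtype range overlapped both. Without overlap, C362A against knockout had 2 of the 32 genes lower, Dnajb9 and P4hb, against 1.74% of all genes, and 0 higher, against 1.11%. The log2 difference of Dnajb9 was -0.34 (SE 0.12, adjusted p = 0.317) in C362A against knockout and -0.20 (SE 0.12, adjusted p = 0.373) in C362A against wildtype.

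The other members of the cycle differed less. Hyou1, the exchange factor of BiP, averaged 196 ± 25.6 CPM in C362A and 198 ± 23.6 CPM in knockout, against 189.6 ± 10.7 CPM in wildtype. Dnajc3, a cochaperone that binds unfolded chains, averaged 127 ± 19.1, 129.6 ± 7.81 and 121 ± 8.79 CPM in C362A, knockout and wildtype. For Dnajb11, which hands substrates to BiP, the averages were 138 ± 11.8, 149 ± 11.8 and 143 ± 18.2 CPM in the same order, and for its partner Sdf2l1 they were 51.6 ± 10.05, 51.3 ± 6.50 and 54.2 ± 12.1 CPM (SD, n = 5 each). The group means of all 4 genes lay within 1 SD of each other in the group with the largest spread.

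**Figure D2:**
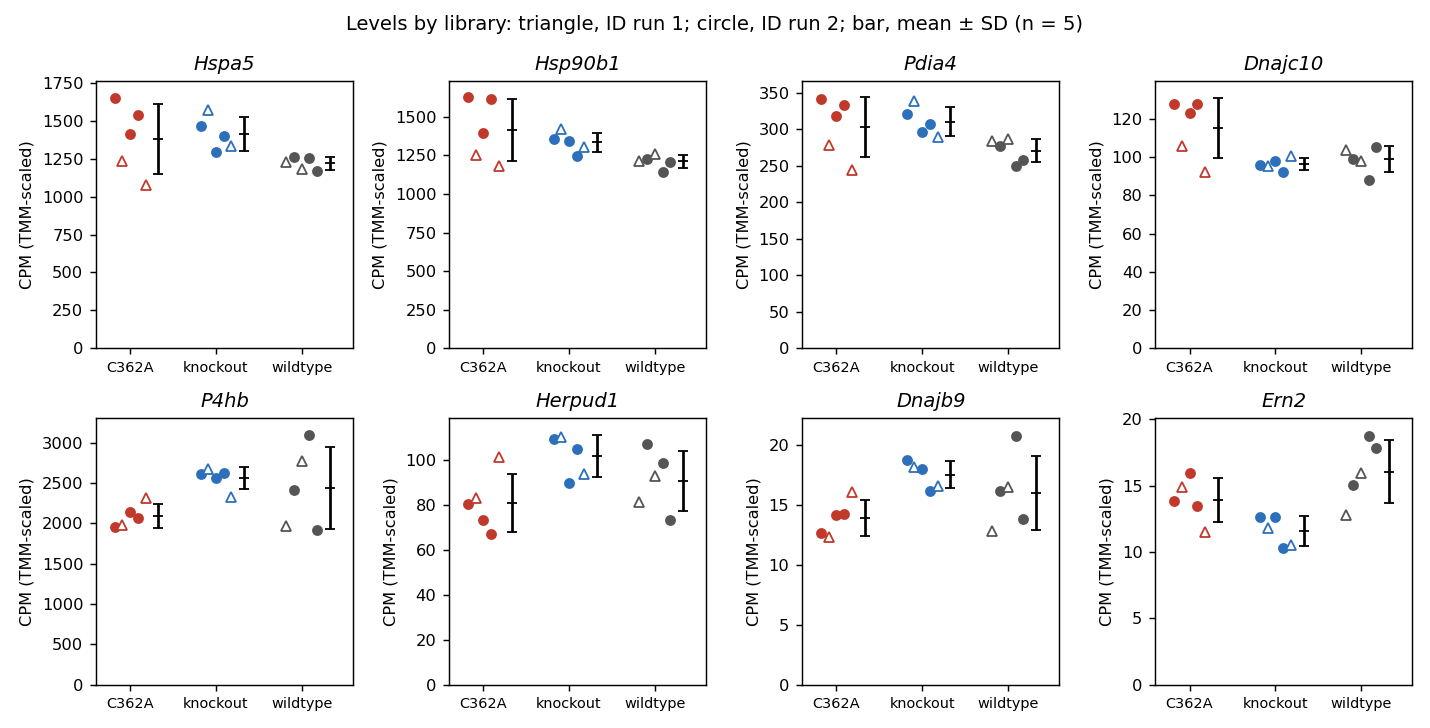
TMM-scaled CPM (y axis, from 0) of 8 genes in each library, by genotype in the order C362A, knockout, wildtype; triangles are libraries of ID run 1, circles those of run 2, and bars the mean ± SD of 5 libraries. Hspa5 and Pdia4 separate knockout from wildtype without overlap, and Dnajb9 and P4hb separate C362A from knockout narrowly, with 2311 CPM in the highest C362A and 2323 CPM in the lowest knockout library for P4hb.

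Among the disulfide isomerases, Pdia4 (ERp72) had 342, 279, 318, 333 and 244 CPM in C362A and 321, 339.6, 297, 308 and 289 CPM in knockout, against 284, 278, 287, 250.1 and 258 CPM in wildtype libraries 1 to 5. Every knockout library was above every wildtype library, the nearest pair being 289 and 287 CPM. The log2 difference was 0.20 (SE 0.09, adjusted p = 1.0) in knockout against wildtype and 0.16 (SE 0.09, adjusted p = 0.356) in C362A against wildtype.

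P4hb (Entrez 18453; chr11:120560298-120573253) encodes protein disulfide isomerase, which is also the small subunit of the microsomal triglyceride transfer protein of enterocytes. It had 1951, 1975, 2143, 2070 and 2311 CPM in C362A and 2614, 2676, 2565, 2622 and 2323 CPM in knockout, against 1969, 2411, 2779, 3094 and 1923 CPM in wildtype. Wildtype libraries ran below the knockout range and above it, so its SD of 508 CPM was larger than the 145 CPM of C362A and the 138 CPM of knockout. The log2 difference was -0.29 (SE 0.11, adjusted p = 0.317) in C362A against knockout, -0.22 (SE 0.11, adjusted p = 0.336) in C362A against wildtype and 0.07 (SE 0.11, adjusted p = 1.0) in knockout against wildtype.

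P4hb levels followed the summed level of 18 enterocyte markers, among them Apob, Mttp, Sis and Lct. That sum was 7086 to 14795 CPM in C362A and 15950 to 19381 CPM in knockout, against 9756 to 28870 CPM in wildtype, and no marker was at 0 in all libraries of a group. Over the 15 libraries the log2 values of P4hb and of the sum had a Pearson r of 0.937 (permutation p = 2.0e-05, the smallest the permutations can give, 4.5e-05 adjusted over 3 relations) and a Spearman rho of 0.911 (permutation p = 2.0e-05, 6.0e-05 adjusted). Without the 2 libraries farthest in the marker sum, C362A library 1 and wildtype library 4, r was 0.927. It was 0.956 within the 6 libraries of ID run 1, 0.953 within the 9 of run 2, and 0.907 for deviations from each genotype's mean. The relation was chosen after the values were seen. In bulk tissue, fewer cells of a type and less RNA per cell cannot be told apart.

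Pdia6 and Pdia3 (ERp57, the isomerase that works with the lectin chaperones) were higher in C362A library 1 than in any other library. Pdia6 had 747, 536, 632, 644 and 456 CPM in C362A and 549.9, 521, 548, 582 and 478 CPM in knockout, against 564, 531, 533, 503 and 541 CPM in wildtype. Pdia3 averaged 1147 ± 150.1 CPM in C362A and 1088 ± 71.9 CPM in knockout, against 1053 ± 48.9 CPM in wildtype. The log2 difference in C362A against wildtype was 0.17 (SE 0.10, adjusted p = 0.392) for Pdia6 and 0.12 (SE 0.09, adjusted p = 0.456) for Pdia3.

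The lectin chaperones, which hold glycoproteins while they fold, had close group means. Calr, encoding calreticulin, averaged 1529 ± 131 CPM in C362A and 1558 ± 78.2 CPM in knockout, against 1474 ± 88.6 CPM in wildtype. Canx, encoding calnexin, averaged 682 ± 45.6 CPM in C362A and 691 ± 29.8 CPM in knockout, against 655 ± 47.3 CPM in wildtype. Of the small ER proteins that stress also releases from cells, Manf averaged 155 ± 20.2 CPM in C362A and 155 ± 20.2 CPM in knockout, against 146 ± 8.35 CPM in wildtype, and Creld2 68.3 ± 11.2, 68.6 ± 7.86 and 64.7 ± 6.61 CPM in the same order. The 4 genes had fitted differences of 0.05 to 0.08 in C362A against wildtype, each smaller than its SE.

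All 8 genes of ER-associated degradation had negative fitted differences in C362A against wildtype, from -0.16 to -0.05 with a median of -0.13, and none was called. Within ID run 2 all 8 were again negative, but within run 1 Herpud1 (0.08) and Edem1 (0.08) were positive. In C362A against knockout all 8 were negative too (median -0.12, none called), and in knockout against wildtype 4 were positive and 4 negative (median 0.00). Both C362A comparisons use the same C362A libraries. Herpud1, a scaffold of the HRD1 ligase and an ATF6 and XBP1 target, had 80.3, 83.0, 73.0, 67.2 and 101 CPM in C362A and 109, 110.0, 89.5, 105 and 93.6 CPM in knockout, against 81.1, 107, 92.7, 98.4 and 73.2 CPM in wildtype. Library 5 was the highest of C362A and overlapped the knockout range. The log2 difference of Herpud1 was -0.33 (SE 0.11, adjusted p = 0.317) in C362A against knockout, -0.16 (SE 0.11, adjusted p = 0.458) in C362A against wildtype and 0.17 (SE 0.11, adjusted p = 1.0) in knockout against wildtype.

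Syvn1, the HRD1 ubiquitin ligase itself, averaged 66.2 ± 5.21 CPM in C362A and 74.2 ± 7.74 CPM in knockout, against 73.6 ± 4.80 CPM in wildtype. Sel1l, its adaptor, averaged 189 ± 19.1 CPM in C362A and 213 ± 15.9 CPM in knockout, against 197 ± 21.2 CPM in wildtype. The log2 difference was -0.15 (SE 0.08, adjusted p = 0.337) for Syvn1 in C362A against wildtype and -0.18 (SE 0.09, adjusted p = 0.378) for Sel1l in C362A against knockout. The mannose-trimming factors Edem1 and Edem2 averaged 97.0 ± 5.64 and 66.0 ± 2.98 CPM in C362A, 102 ± 5.66 and 71.6 ± 2.39 CPM in knockout, and 101 ± 10.4 and 73.3 ± 11.2 CPM in wildtype. The derlins, membrane proteins of the degradation channel, averaged 98.6 ± 1.54 CPM (Derl1), 49.0 ± 3.12 CPM (Derl2) and 1.10 ± 0.53 CPM (Derl3) in C362A, 101 ± 9.21, 53.4 ± 5.84 and 1.20 ± 0.41 CPM in knockout, and 102 ± 8.04, 53.6 ± 3.52 and 1.20 ± 0.20 CPM in wildtype. The library kit does not mark the strand, and Syvn1 overlaps Mrpl49 and Derl2 overlaps Mis12, so reads from the shared stretches cannot be assigned with certainty.

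Of the sensors, Ern2 (Entrez 26918; chr7:122169893-122186239), the IRE1β of mucus-secreting epithelium, showed the largest difference of the 32 genes. It had 13.8, 14.9, 15.98, 13.5 and 11.5 CPM in C362A and 12.7, 11.8, 12.6, 10.3 and 10.51 CPM in knockout, against 12.8, 15.05, 15.9, 18.8 and 17.8 CPM in wildtype. Every knockout library lay below every wildtype library, narrowly so for knockout library 1 at 12.7 CPM and wildtype library 1 at 12.8 CPM. Ern2 was the 1 gene of the 32 without overlap on the lower side in knockout against wildtype, against 0.327% of all genes. Its log2 difference was -0.47 (SE 0.11, adjusted p = 0.700) in knockout against wildtype, -0.20 (SE 0.11, adjusted p = 0.361) in C362A against wildtype and 0.27 (SE 0.11, adjusted p = 0.324) in C362A against knockout.

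Ern2 levels followed the summed level of 11 goblet cell markers, among them Muc2 and Tff3. That sum was 749 to 1368 CPM in C362A and 744 to 1236 CPM in knockout, against 606 to 1780 CPM in wildtype. Over the 15 libraries r was 0.782 (permutation p = 0.00075) and rho 0.764 (permutation p = 0.00145), with the same values after adjustment over the 3 relations. Without wildtype libraries 1 and 4, the farthest in the sum, r was 0.783. It was 0.675 within ID run 1 (6 libraries), 0.848 within run 2 (9 libraries), and 0.822 for deviations from each genotype's mean. Few knockout and wildtype libraries had like sums. Knockout library 3 had 12.6 CPM at a sum of 1236 CPM, and wildtype library 2 had 15.05 CPM at 1249 CPM. Knockout library 1 had 12.7 CPM of Ern2 at a sum of 786 CPM, and wildtype library 1 had 12.8 CPM at 606 CPM. The part of the goblet markers in the knockout difference was not tested. This relation, too, was chosen after the values were seen.

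**Figure D3:**
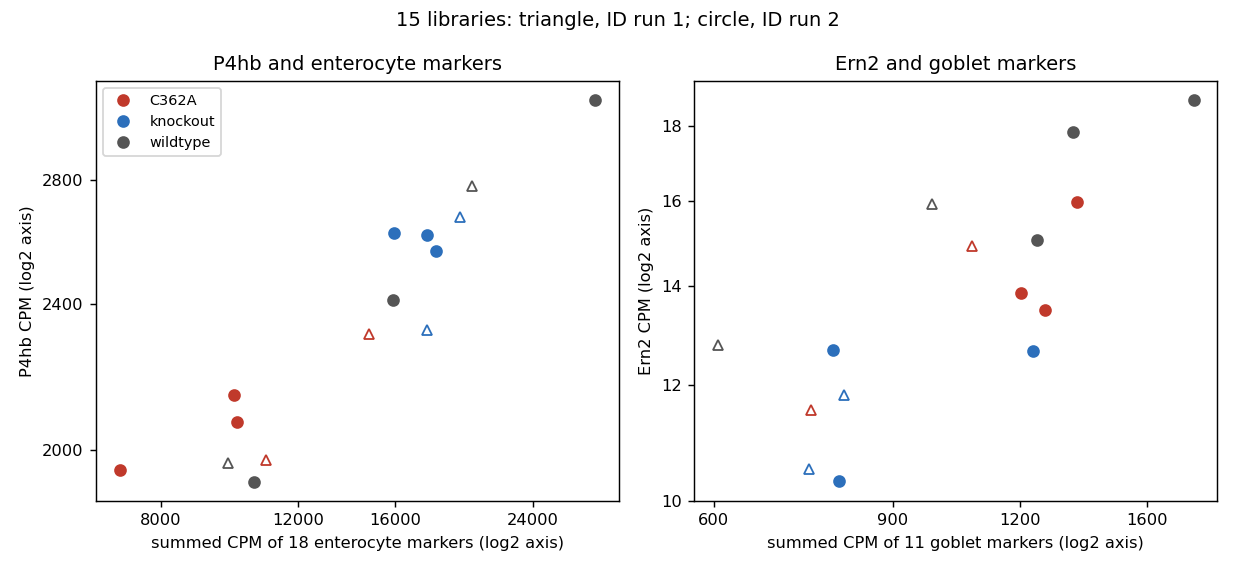
Level of P4hb against the summed level of 18 enterocyte markers (left) and of Ern2 against 11 goblet cell markers (right), in CPM on log2 axes, 1 point per library; triangles are ID run 1 and circles run 2. Levels rise with the marker sum in each panel, with r of 0.937 for P4hb and 0.782 for Ern2. On the right, knockout library 3 and wildtype library 2 are the points of these genotypes nearest in sum. Knockout library 3 has 12.6 CPM at a sum of 1236 CPM, and wildtype library 2 has 15.05 CPM at 1249 CPM.

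Ern1, the broadly expressed IRE1α, had 9.86, 14.6, 13.2, 14.1 and 9.43 CPM in C362A and 8.68, 12.2, 11.8, 9.16 and 14.1 CPM in knockout, against 9.74, 11.7, 9.25, 13.0 and 12.5 CPM in wildtype. The ranges overlapped almost wholly, and the log2 difference was 0.12 (SE 0.16) in C362A against wildtype and -0.00 (SE 0.16) in knockout against wildtype. Atf6 averaged 63.2 ± 5.74 CPM in C362A and 59.8 ± 2.62 CPM in knockout, against 58.5 ± 3.41 CPM in wildtype. Eif2ak3, which encodes PERK, averaged 33.7 ± 4.76 CPM in C362A and 33.6 ± 2.34 CPM in knockout, against 35.0 ± 2.57 CPM in wildtype. Neither gene had a fitted difference beyond 0.11 in any comparison, with SEs of 0.07 to 0.09.

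Xbp1 mRNA, itself a target of the response, had 228, 199.9, 203, 183 and 183 CPM in C362A and 234, 217, 199, 242 and 191 CPM in knockout, against 210.4, 216, 204, 279.7 and 200.3 CPM in wildtype. Wildtype library 4 stood above all others. The log2 difference was -0.16 (SE 0.10, adjusted p = 0.417) in C362A against wildtype, -0.04 (SE 0.10, adjusted p = 1.0) in knockout against wildtype and -0.12 (SE 0.10, adjusted p = 0.574) in C362A against knockout.

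The translocon genes, through which new chains enter the ER, had close group means. Sec61a1, the channel, averaged 380.4 ± 31.4 CPM in C362A and 379 ± 18.4 CPM in knockout, against 380.2 ± 18.8 CPM in wildtype, and Sec61b, a small subunit of it, 16.6 ± 1.06, 15.9 ± 3.36 and 17.2 ± 0.88 CPM in the same order. The fitted difference of Sec61a1 was 0.00 (SE 0.07, interval -0.15 to 0.15) in C362A against wildtype. Ppp1r15a encodes GADD34, which directs dephosphorylation of eIF2α and so closes the PERK arm. It had 19.0, 14.65, 15.5, 17.7 and 16.3 CPM in C362A and 13.1, 14.5, 17.8, 13.9 and 15.3 CPM in knockout, against 16.4, 14.9, 15.6, 11.99 and 11.7 CPM in wildtype. All groups overlapped, and the log2 difference was 0.24 (SE 0.11, adjusted p = 0.317) in C362A against wildtype, 0.08 (SE 0.11, adjusted p = 1.0) in knockout against wildtype and 0.15 (SE 0.11, adjusted p = 0.524) in C362A against knockout.

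In C362A and in knockout, most of the 16 chaperone, isomerase and ER factor genes had their highest value in the same library. C362A library 1 was the highest of its group for 11 of the 16 genes, and C362A library 5 the lowest for 13 of the 16. P4hb and Dnajb9 were exceptions, with their highest C362A value in library 5. Relative to the mean of all libraries, the median of those 16 genes was 0.25 log2 units higher in C362A library 1 and -0.18 in C362A library 5. Knockout library 2 was the highest of its group for 12 of the 16, with a median of 0.20. In wildtype the medians ran from -0.14 (library 5) to 0.04 (library 4), and library 4 was the highest of its group for 8 of the 16 and the lowest for 6. In C362A the degradation genes took another order, with a median of -0.13 in library 1 and 0.00 in library 5. In the other genotypes the library with the highest median was the same for degradation genes as for folding genes, knockout library 2 (0.18) and wildtype library 4 (0.19).

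Levels of Hspa5 and Hsp90b1, the central chaperones, were related across libraries. Over the 15 libraries their log2 levels had an r of 0.851 (permutation p = 3.0e-05, 4.5e-05 adjusted over the 3 relations) and a rho of 0.850 (permutation p = 0.00011, 0.000165 adjusted). Without C362A library 1 and knockout library 2, the farthest in Hspa5, r was 0.781; within ID run 1 it was 0.956 and within run 2 0.876. This pair was also chosen after the values were seen, and the adjustment over 3 relations does not cover such a choice. The spread within C362A was the widest for these genes: the median SD of the 32 genes was 0.165 log2 units in C362A, 0.109 in knockout and 0.103 in wildtype. Over 9941 genes of like level the medians were 0.145 in C362A, 0.113 in knockout and 0.138 in wildtype.

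**Figure D4:**
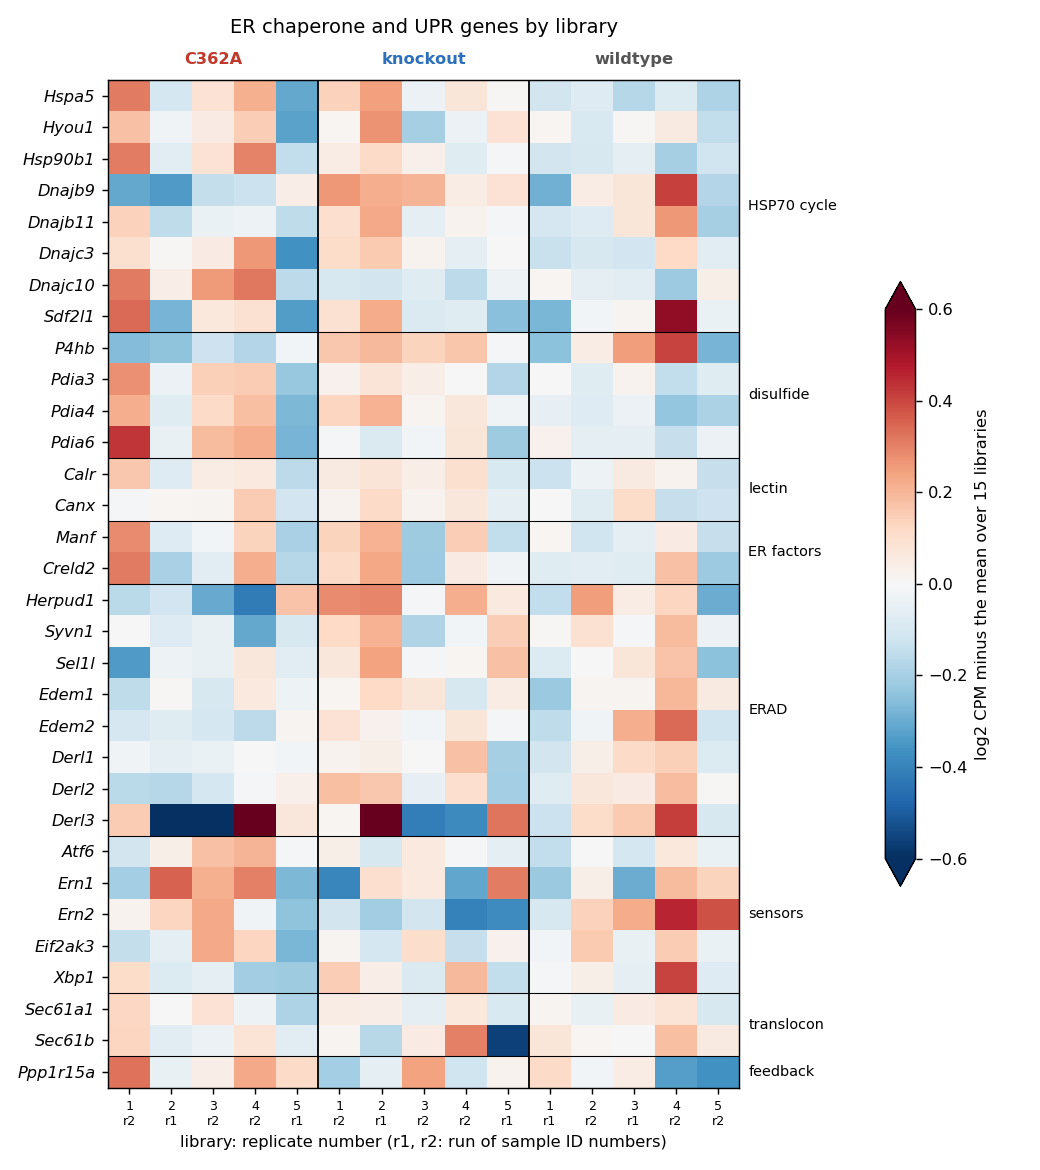
Deviation of each of the 32 genes (down the page, by role) from its mean over all 15 libraries, in log2 CPM, by library in the order C362A, knockout, wildtype; r1 and r2 mark the run of sample ID numbers. C362A library 1 and knockout library 2 are high over most folding genes, with medians of 0.25 and 0.20, and C362A library 5 is low, with a median of -0.18.

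C362A libraries 2 and 5 belong to ID run 1 and libraries 1, 3 and 4 to run 2, so the comparison was recomputed within each run after the values were seen. Within run 2 (3 libraries a group), 6 of the 32 genes rose in C362A against wildtype, where 5.07% of 18343 genes rose, and 0 fell, where 8.44% did. They were Dnajc10 (0.37, SE 0.08, adjusted p = 0.016), Hsp90b1 (0.37, SE 0.10, adjusted p = 0.0279), Pdia6 (0.36, SE 0.09, adjusted p = 0.0285), Pdia4 (0.34, SE 0.08, adjusted p = 0.0248), Hspa5 (0.32, SE 0.10, adjusted p = 0.0469) and Pdia3 (0.29, SE 0.09, adjusted p = 0.0463), all of them foldases or chaperones. Within run 1 (2 libraries a group) 0 of 32 were called, as was none of all genes tested, and the same 6 genes had differences of -0.15 to -0.03. At an unadjusted p under 0.05 run 1 also had 0 of the 32, and the share of all genes at that threshold is not given here.

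The difference between the runs did not pass its own test for any of the 32 genes. In the fit with an interaction of genotype and ID run over all 15 libraries, 0 of 32 genes were called in C362A against wildtype, where 1.42% of all genes were. All 261 genes called there had a lower difference in run 2 than in run 1, and 0 had a higher one. The 6 genes named above were picked by their calls within run 2, a choice that favours higher differences in that run. The smallest adjusted p was that of Pdia6, 0.103, with a difference between runs of 0.51 (SE 0.15). For Pdia4 it was 0.46 (SE 0.14, adjusted p = 0.12), for Hsp90b1 0.40 (SE 0.14, adjusted p = 0.179) and for Hspa5 0.38 (SE 0.15, adjusted p = 0.241). In C362A against knockout, run 2 had 1 of the 32 genes higher, Dnajc10 (0.40, SE 0.08, adjusted p = 0.0365), against 0.665% of all genes, and 0 lower, against 1.36%. Run 1 had 0 in either direction, where 1 of all 18629 genes tested was called. In knockout against wildtype neither run had a call among the 32, where 1 of all genes tested was called in each run.

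**Figure D5:**
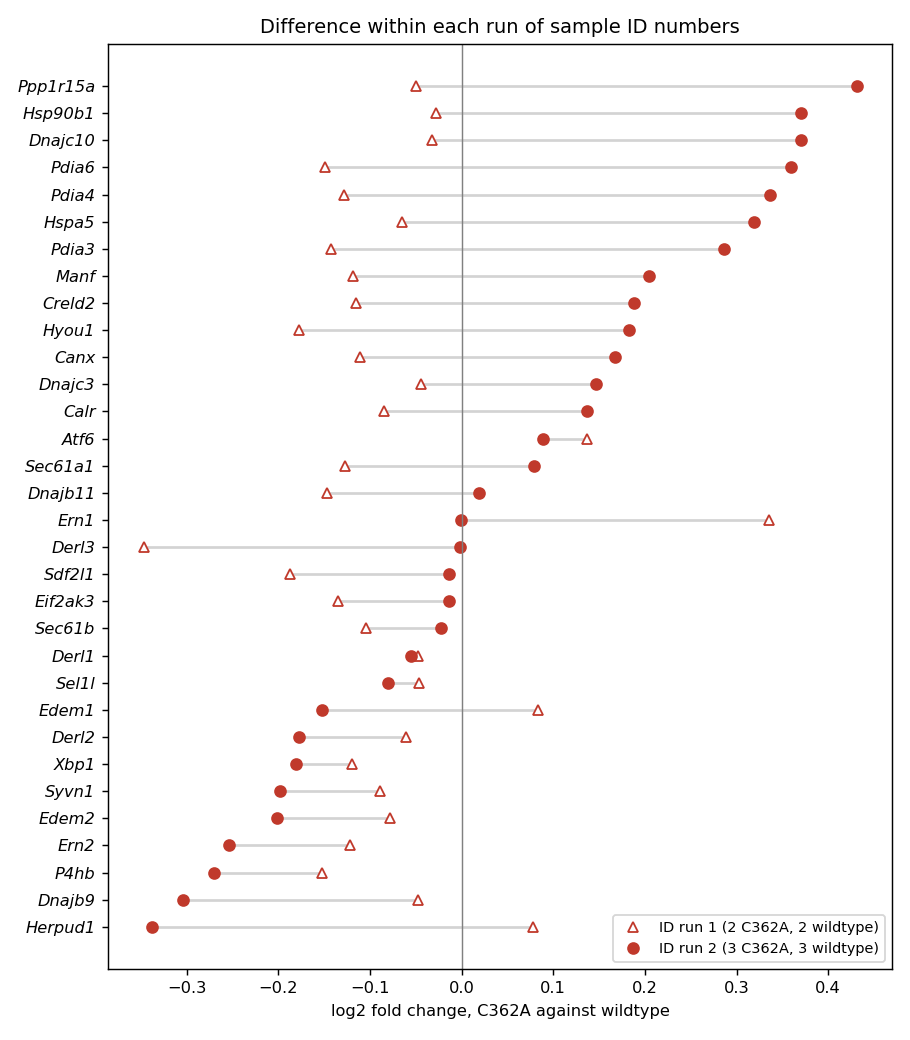
Log2 difference in C362A against wildtype (x axis) for each of the 32 genes, fitted within ID run 1 (2 libraries a group) and within run 2 (3 libraries a group), triangles for run 1 and circles for run 2, joined by a grey line. Dnajc10, Hsp90b1, Pdia6, Pdia4, Hspa5 and Pdia3 stand at 0.29 to 0.37 in run 2 and at -0.15 to -0.03 in run 1.

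Leaving out C362A library 5 alone also gave calls. Without it, C362A against wildtype had 2 of the 32 genes higher, Hsp90b1 (0.28, adjusted p = 0.0415) and Dnajc10 (0.29, adjusted p = 0.0273), against 4.29% of all genes, and 0 lower, against 5.47%. C362A against knockout then had 1 higher, Dnajc10 (0.33, adjusted p = 0.0383), against 1.78%, and 1 lower, Herpud1 (-0.42, adjusted p = 0.0418), against 2.57%. Library 5 had 14795 CPM of enterocyte markers, where the other C362A libraries had 7086 to 10925 CPM, and 1098 CPM of 9 proliferation markers, where they had 1390 to 1638 CPM. Within run 2 the enterocyte sum was 7086 to 10016 CPM in C362A against 10534 to 28870 CPM in wildtype. The proliferation sum was 1567 to 1638 CPM against 922 to 1334 CPM, and the sum of 8 fibroblast markers 7669 to 8603 CPM against 4941 to 7025 CPM. The sum of 7 smooth muscle markers was 5537 to 6207 CPM against 4528 to 4664 CPM, and that of the 8 intestine genes 3659 to 4187 CPM against 4442 to 9803 CPM. Within run 1 the ranges of C362A and wildtype overlapped for each of these sums. The part of these markers in the folding genes' levels was not tested. Of markers of other secretory cells, 5 plasma and B cell genes summed to 0.75 to 2.03 CPM in C362A, 0.45 to 1.25 CPM in knockout and 0.58 to 1.27 CPM in wildtype, and 14 acinar pancreas genes to 22.5 to 179, 17.5 to 237 and 24.9 to 135 CPM in the same order. The sum of 8 hepatocyte genes was 565 to 796 CPM in C362A, 547 to 1982 CPM in knockout and 343 to 1257 CPM in wildtype, and that of 8 enteroendocrine genes 241 to 415, 199 to 267 and 232 to 412 CPM in the same order. Their part in the levels of the 32 genes was not tested.

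Genes with an ERSE were compared with those whose promoter held none. Dnajb11 and Herpud1, which held an ERSE-II, were counted among the latter. In C362A against wildtype the 9 genes with an ERSE had a median difference of 0.08 (7 positive, 2 negative) and the 17 without had -0.06 (5 positive, 12 negative). In knockout against wildtype the medians were 0.08 (8 positive, 1 negative) and 0.01 (9 positive, 8 negative). In C362A against knockout they were -0.02 (2 positive, 7 negative) and -0.07 (7 positive, 10 negative). Within ID run 1 all 9 genes with an ERSE were negative in C362A against wildtype (median -0.09), and within run 2 7 of 9 were positive (median 0.17), Syvn1 and Derl3 being the others. Most genes without an ERSE were negative in run 1 as well, all but Herpud1 (0.08), Edem1 (0.08) and Ern1 (0.34). In run 2 the positive ones among them were Dnajb11, Dnajc10, Pdia3, Pdia4 and Ppp1r15a. No test was made of these groups of genes.

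Other genes of the pathway gave 0 calls over all libraries. Of 130 genes in 9 lists (PERK and ATF4 targets, ATF6-family factors and their proteases, further oxidoreductases, folding factors, glycan quality control, degradation, translocation, oligosaccharyltransferase, and retrieval and export), 128 were tested and 0 were called by edgeR in each comparison. At an unadjusted p under 0.05 they numbered 5 higher and 5 lower in C362A against wildtype (8.08% and 7.80% of all genes), 1 and 3 in knockout against wildtype (1.20% and 1.23%), and 11 and 6 in C362A against knockout (6.49% and 7.41%). Within ID run 2, 7 of the 128 were called higher and 5 lower in C362A against wildtype, against 5.07% and 8.44% of all genes, and within run 1 0 were. In C362A against knockout run 2 had 2 higher and 1 lower, against 0.665% and 1.36%. In this paragraph signs are given for only 1 of the 9 lists, oligosaccharyltransferase. All 11 of its genes were on the positive side in C362A against wildtype, from 0.00 to 0.14 with a median of 0.08. Within ID run 2 all 11 were again positive (median 0.16), but within run 1 2 were positive and 9 negative (median -0.06). The smallest p-values in that comparison were those of Mcfd2 (-0.37, SE 0.14), a cargo receptor subunit, Mbtps2 (0.17, SE 0.07), a protease that cleaves ATF6, Creb3l3 (-0.70, SE 0.29), an ATF6-like factor, Preb (-0.21, SE 0.09) and the oxidase Ero1a (0.26, SE 0.11), with adjusted p of 0.285 to 0.295.

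In knockout against wildtype the smallest p-values among them belonged to Creb3l4 (-0.48, SE 0.15) and Agr2 (-0.48, SE 0.20), an isomerase needed for mucin folding, followed by Sec11c (-0.21, SE 0.10), Asns (0.42, SE 0.19) and Fam8a1 (0.10, SE 0.05), all at an adjusted p of 1.0. Creb3l4 and Agr2 are also on the list of goblet cell markers. In C362A against knockout they belonged to Pdia5 (0.36, SE 0.11), Creb3l4 (0.44, SE 0.15), Qsox1 (0.18, SE 0.06), Mcfd2 (-0.41, SE 0.14) and Prdx4 (0.32, SE 0.12), all at an adjusted p of 0.317.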

How the data were processed

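Libraries were made with a TruSeq RNA v2 kit from DNase-treated RNA and read as single-end 50 bp reads on a HiSeq4000, per the labels' protocols. Reads were aligned with GSNAP to GRCm38, per the submitters' processing notes. Its version, options and gene models: not given in the sources used here. Per the file headers, the authors deposited whole-number counts of reads that aligned uniquely within each gene model, and these entered the tests unscaled. RPKM values deposited beside them carry the authors' own size factors, per the headers, and served to compare genes per length and as an alternative unit. Genes with close copies lose reads when only unique alignments count.

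Gene names came from RefSeq by Entrez ID (31049 of 36528 IDs named). The 32 genes, the pathway lists and the marker lists were chosen with earlier results of these data known. edgeR 4.0.16 (R 4.3.3; TMM, filterByExpr at its count minimum of 10 and total minimum of 15) was fitted to all 15 libraries with a mean per genotype (robust quasi-likelihood test; 18370 genes; biological coefficient of variation 0.174). P-values were adjusted by Benjamini-Hochberg over all genes tested, with 0.05 as the threshold. Intervals are 95% intervals of the fitted differences, and levels are TMM-scaled CPM. Genes named were those called, the 8 of the 32 with the smallest p, Hspa5, Hsp90b1, Xbp1, Ern1, Ern2, Eif2ak3, Atf6 and Ppp1r15a, and the 5 pathway genes with the smallest p in a comparison. Relations across libraries used 100000 permutations (scipy 1.17.1, two-sided). The fits were tested on simulated data. Alternatives were RLE scaling, library totals, DESeq2 1.42.0, limma-voom (limma 3.58.1), limma on log2 RPKM with a pseudocount of 1 or 0.1 (mean RPKM of at least 0.5), other filters, 2 groups only, a block for ID run, non-robust estimates, a threshold of 0.01 and each library left out. Calls within ID runs, and the interaction of genotype and ID run, were added after the data were seen.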

Additional observations from a re-analysis of the deposited data

Results flagged for a closer look

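Of 96 groups of 5 libraries checked for a library far from the rest (32 genes in 3 genotypes), 2 were found, both in wildtype library 4; chance alone marks about 1 in 20 groups. Xbp1 had 279.7 CPM in that library, against 200.3 to 216 CPM in the other wildtype libraries, a gap of 0.798 of the group's range where 0.71 is the critical value. Dnajc3 had 136 CPM there, against 114 to 120.0 CPM in the others, a gap of 0.730. Wildtype library 4 was the highest of its group for 21 of the 32 genes, and it also held the highest sum of enterocyte markers, 28870 CPM. Whether the marker sum and these levels are linked was not tested.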

How the results depend on the processing

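The count of called genes is given here without shares of all genes. It stayed at 0 of 32 in all 3 comparisons under every scaling, test, unit, filter, sample set, threshold and ID-run block tried. With libraries left out in turn it ran from 0 to 2 in C362A against wildtype and from 0 to 2 in C362A against knockout, the 2 arising without C362A library 5 in both, and from 0 to 0 in knockout against wildtype. Within ID run 2, chosen after the data were seen, it was 6 in C362A against wildtype and 1 in C362A against knockout; the cause was not tested. Of 1120 recomputed log2 differences of named genes, 35 took the opposite sign without passing the test on either side, the largest of them 0.24 (Ppp1r15a, C362A against wildtype). Scaling moved the median of all genes by at most 0.04. No paired analysis was possible because the labels give no replicate numbers. With 2 libraries a group in run 1, differences of the size seen in run 2 were not tested with like precision: SEs of the 6 genes were 0.12 to 0.16 in run 1 and 0.08 to 0.10 in run 2.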

Other observations

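Ddit3, Trib3 and Atf4 of the PERK and ATF4 branch, named after their values were seen, took another order over the C362A libraries than the chaperones did. The other genes of the branch are not given by library here. Ddit3, which encodes the stress factor CHOP, had 16.6, 16.9, 14, 15.9 and 41.1 CPM in C362A libraries 1 to 5 and 28.1, 25.1, 21.2, 27.5 and 23.9 CPM in knockout, against 23.4, 23.2, 23.5, 27.2 and 20.9 CPM in wildtype. Trib3, a CHOP and ATF4 target, had 4.45, 2.97, 2.28, 2.43 and 12.9 CPM in C362A and 2.12 to 4.14 CPM in knockout, against 2.64 to 3.21 CPM in wildtype. Atf4 had 231, 208, 168, 192 and 296 CPM in C362A and 240.3 to 289 CPM in knockout, against 221 to 241 CPM in wildtype. C362A library 5 was thus the highest of all 15 libraries for these 3 genes, while it was the lowest of its group for 13 of the 16 folding genes. Ppp1r15a, which acts on the PERK arm, differed from them, with 19.0 CPM in C362A library 1 and 16.3 CPM in library 5. The edgeR difference in C362A against wildtype was -0.18 (SE 0.24, adjusted p = 0.720) for Ddit3, 0.77 (SE 0.40, adjusted p = 0.347) for Trib3 and -0.10 (SE 0.11, adjusted p = 0.666) for Atf4. Of the 14 genes of the branch, 11 were positive in C362A against wildtype (median 0.17) with all libraries, and 9 were positive without C362A library 5 (median 0.02), when 1 was called lower, against 5.47% of all genes, and 0 higher, against 4.29%.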
